A study of Mus musculus with 11 samples.

Results

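The 10 genes described here are the WNT ligand genes *Wnt3*, *Wnt4*, *Wnt5a*, *Wnt5b*, *Wnt6*, *Wnt7b*, *Wnt9a*, *Wnt9b*, *Wnt10a* and *Wnt11*. They were taken from a list of WNT ligands of the face and matched by symbol to the Ensembl identifiers of the count tables. All 10 were found among the 38561 genes counted, and all 10 were among the 17317 genes with enough counts to be tested. RNA was extracted from facial process explants (the nasal processes with the maxillary and mandibular parts of the branchial arch) of mouse embryos at E10.5, the embryonic day being 10.5 in every label. Of the 11 libraries, 2 carry the label wild type (wt), and *Rspo2*KO, *Wnt9b*KO and DKO have 3 each. *Rspo2*KO stands for loss of *Rspo2*, *Wnt9b*KO for loss of *Wnt9b* and DKO for loss of both genes in the same embryo. The strain of every library is given as Mixed, and the sources used here do not say which exons the mutant alleles lack. The study's methods give a number of embryos per genotype for most of its experiments, but do not state for these libraries whether embryos were pooled or whether each library came from a separate embryo. They also give wt as many sequenced samples as each mutant, and a further wt sample was not analysed here. The p-values therefore measure the spread between these libraries, which may be technical.

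WNT proteins are lipid-modified secreted ligands that bind Frizzled receptors on nearby cells. With the co-receptors LRP5 and LRP6 they stabilise β-catenin, which acts with TCF/LEF factors on target genes, whereas other WNT responses run through receptors such as ROR2 and RYK and steer cell polarity and movement. WNT3, WNT6, WNT7B, WNT9A, WNT9B and WNT10A are mostly known as activators of the β-catenin branch, WNT5A, WNT5B and WNT11 mostly for the polarity branch, and WNT4 for either. In the embryonic face several ligands are made by the surface ectoderm and act on the mesenchyme beneath it, where R-spondins such as RSPO2 keep WNT receptors at the cell surface.

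*Wnt9b* (ENSMUSG00000018486) is one of the 2 targeted genes and *Wnt9a* (ENSMUSG00000000126) is its closest relative in the family. Both lie on chromosome 11 of GRCm38, *Wnt9b* at chr11:103727364-103749821 on the minus strand with 4 exons and *Wnt9a* at chr11:59306928-59333552 on the plus strand with 4 exons. *Wnt11* (ENSMUSG00000015957) lies at chr7:98835112-98855195 on the plus strand. The 250 bases before the transcription start are printed for these 3 genes because *Wnt9b* and *Wnt9a* are the members whose levels differed most clearly between labels and *Wnt11* is the member that varied most within a label. Sequences are those of RefSeq for build GRCm38.p6, read 5′ to 3′ on the strand of the gene. They span chr11:103749822-103750071 for *Wnt9b*, chr11:59306680-59306929 for *Wnt9a* and chr7:98834862-98835111 for *Wnt11*. Capitals mark a match to CTTTGAT or CTTTGAA, letters bound by TCF/LEF factors, on either strand.
Wnt9b: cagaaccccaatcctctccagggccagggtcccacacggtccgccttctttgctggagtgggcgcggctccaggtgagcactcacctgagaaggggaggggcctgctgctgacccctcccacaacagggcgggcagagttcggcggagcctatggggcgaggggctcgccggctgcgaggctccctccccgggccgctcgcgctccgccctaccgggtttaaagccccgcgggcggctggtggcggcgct
Wnt9a: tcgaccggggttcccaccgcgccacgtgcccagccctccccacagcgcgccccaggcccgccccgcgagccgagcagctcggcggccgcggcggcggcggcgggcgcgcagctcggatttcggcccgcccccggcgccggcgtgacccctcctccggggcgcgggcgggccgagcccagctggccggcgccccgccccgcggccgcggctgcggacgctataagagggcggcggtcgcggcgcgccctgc
Wnt11: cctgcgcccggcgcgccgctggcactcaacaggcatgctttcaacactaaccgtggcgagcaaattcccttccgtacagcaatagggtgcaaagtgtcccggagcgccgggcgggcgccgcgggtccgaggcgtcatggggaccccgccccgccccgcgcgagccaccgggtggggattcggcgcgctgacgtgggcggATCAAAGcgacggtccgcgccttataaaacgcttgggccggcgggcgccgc
A match stood 51 bases before the start of *Wnt11*, on the reverse strand, and the stretches of *Wnt9b* and *Wnt9a* held none. Of all 32851 stretches of this length, 7.5% held at least 1 of the 2 motifs. RefSeq stretches were matched for 7 of the 10 members (*Wnt3*, *Wnt4*, *Wnt5b*, *Wnt6*, *Wnt9a*, *Wnt9b* and *Wnt11*), in 10 stretches in all because *Wnt5b* has 3 starts and *Wnt11* has 2. The third start of *Wnt5b* held the other match, 71 bases before it. The first stretches of the 7 genes were rich in G and C, from 68.0% in *Wnt3* to 85.2% in *Wnt4*, against a median of 52.4% over all stretches.

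Total counts ranged from 11136166 to 18017344 per library. Levels are given in CPM, counts relative to the library total after TMM scaling, with the scaling factors between 0.9153 and 1.096. *Rspo2*, the other targeted gene, stood at 14.8 and 16.0 CPM in the wt libraries and at 4.73 to 6.58 CPM in those labelled *Rspo2*KO. In the libraries labelled *Wnt9b*KO it stood at 22.8, 2.86 and 18.1 CPM, and in those labelled DKO at 4.17, 3.67 and 15.5 CPM, so that *Wnt9b*KO 2 and DKO 3 went against their labels. Libraries are therefore named by their labels throughout. Libraries with and without the *Wnt9b* label also differed in other respects: snRNA genes summed to 352 to 419 CPM in the wt and *Rspo2*KO libraries and to 70.1 to 82.6 CPM in the *Wnt9b*KO and DKO libraries. *Xist* stood at 679 to 1468 CPM in the wt and DKO libraries and at 0.820 to 1.94 CPM in the *Rspo2*KO and *Wnt9b*KO libraries. Comparisons of DKO with either single mutant, of either single mutant with wt, and the interaction therefore differ in *Xist* level as well as in label. The mean of *Wnt9b*KO minus wt and DKO minus *Rspo2*KO, called the averaged *Wnt9b* difference, holds both kinds on each side, as does the averaged *Rspo2* difference. The snRNA difference cannot be told apart from the *Wnt9b* label in any comparison across that label. The averaged *Rspo2* difference holds both snRNA levels on each side.

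Of the 10 members, *Wnt7b* and *Wnt5a* had the most abundant transcripts in the wt face, and *Wnt10a* and *Wnt11* had the least abundant. To compare genes, CPM was divided by the length of the exons in kb. *Wnt7b* stood at 9.79 ± 0.632 CPM per kb (SD, n = 2) and *Wnt5a* at 9.39 ± 0.117 CPM per kb, and their wt libraries overlapped. *Wnt5b* at 5.76 ± 0.556 CPM per kb and *Wnt6* at 5.76 ± 0.658 CPM per kb came next and overlapped as well. Below them *Wnt9b* stood at 2.68 ± 0.407 CPM per kb, *Wnt4* at 2.11 ± 0.0318 CPM per kb, *Wnt3* at 1.98 ± 0.00636 CPM per kb and *Wnt9a* at 1.32 ± 0.0693 CPM per kb. The wt libraries of these 4 did not overlap one another, although 2 libraries say little about spread. *Wnt11* at 0.359 ± 0.111 CPM per kb and *Wnt10a* at 0.291 ± 0.1 CPM per kb overlapped as the lowest members, with 13 and 30 counts and 10 and 9 counts in the wt libraries. With the longest transcript in place of all exons, *Wnt7b* rose to 14.1 CPM per kb and *Wnt5a* to 10.48 CPM per kb, with *Wnt7b* still first.

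**Figure D1:**
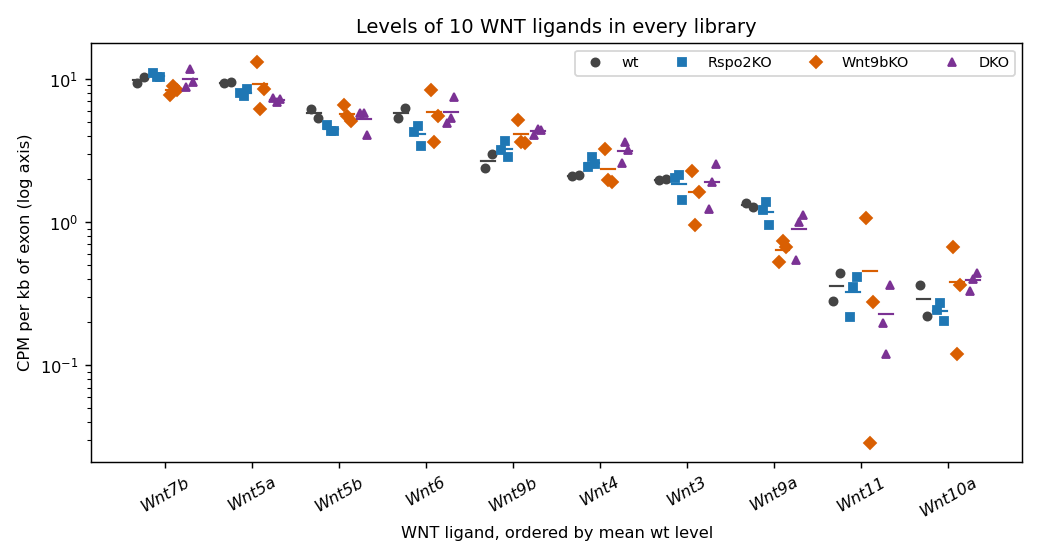
CPM per kb of exon (log axis) of the 10 WNT ligands in the 11 libraries, ordered by mean wt level. Symbols are libraries and short lines are means of a label. *Wnt7b* and *Wnt5a* lead, *Wnt10a* and *Wnt11* lie lowest, and *Wnt11* in the libraries labelled *Wnt9b*KO spans the widest range.

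This order varied little among the 11 libraries. *Wnt7b* ranked first in 9 libraries and *Wnt5a* in the other 2. *Wnt4* ranked 6 and *Wnt3* ranked 7 among the members in each of the 11. *Wnt10a* was in the lowest 2 places in all 11 libraries and *Wnt11* in 10 of them. Summed over the 19 WNT ligand genes, the level lay between 37.9 and 52.5 CPM per kb, with the lowest value in *Wnt9b*KO 2 and the highest in *Wnt9b*KO 1. The 10 members made up 83.3% to 92.5% of that sum, and these extremes fell in the same libraries. In the wt libraries the members made up 87.6% and 90.2%, in those labelled *Rspo2*KO 87.8% to 90.6%, and in those labelled DKO 85.2% to 86.4%. *Wnt7b* alone gave 21.2% and *Wnt5a* 21.1% of the ligand sum in wt 1, and 22.9% and 21.2% in wt 2.

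**Figure D2:**
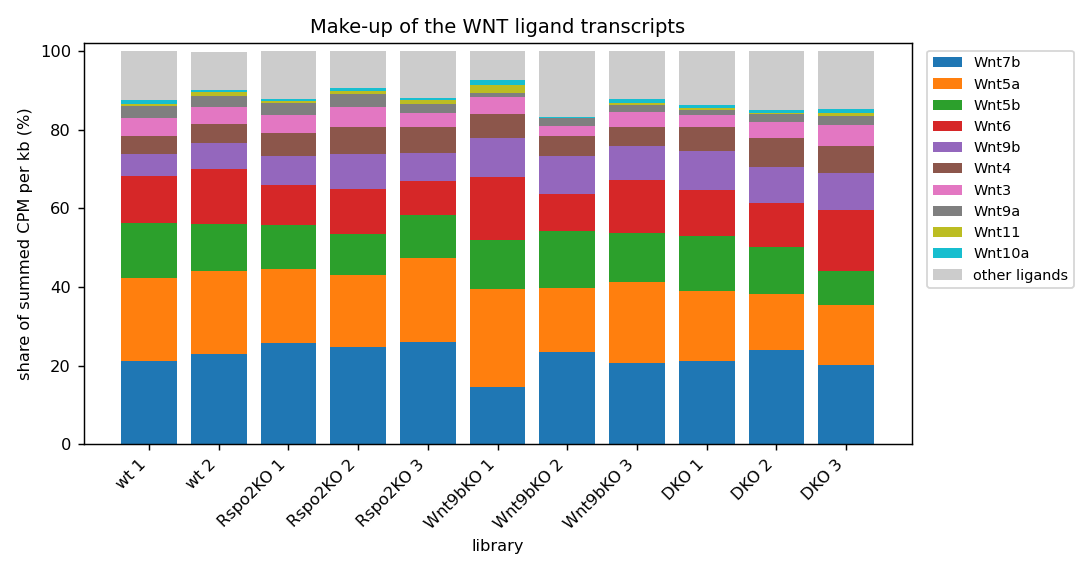
Share of each WNT ligand in the summed CPM per kb of 19 ligand genes (percent), 1 bar per library. Coloured blocks are the 10 members and the grey block is the other 9 ligands. The members hold 83.3% to 92.5% of every bar, with the smallest share in *Wnt9b*KO 2.

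*Wnt9b*, the targeted ligand, was higher in the libraries labelled as lacking it than in wt. It stood at 10.8 and 13.4 CPM in the wt libraries, at 14.4, 16.7 and 12.9 CPM in those labelled *Rspo2*KO, at 23.3, 16.3 and 16.2 CPM in those labelled *Wnt9b*KO and at 18.3, 20.2 and 19.8 CPM in those labelled DKO. All 6 libraries with a *Wnt9b* label lay above both wt libraries, whereas those labelled *Rspo2*KO overlapped wt and reached into the range of *Wnt9b*KO. The counts cover all exons together, from 121 in wt 1 to 438 in *Wnt9b*KO 1, and say nothing of which part of the transcript or whether protein was made. *Wnt9b* rose by 0.61 (log2, SE 0.182) in *Wnt9b*KO against wt (adjusted p = 0.0187, edgeR's quasi-likelihood test with Benjamini-Hochberg adjustment over all genes tested) and by 0.68 (SE 0.183) in DKO against wt (adjusted p = 0.0138). The averaged *Wnt9b* difference was 0.51 (SE 0.121, adjusted p = 0.00359), a 1.42-fold rise. The averaged difference remained past the threshold in 20 of 20 alternatives, at 0.41 to 0.59 with adjusted p up to 0.0283. The comparisons with wt rested on wt 1: without it the difference was 0.47 (adjusted p = 0.168) in *Wnt9b*KO and 0.53 (adjusted p = 0.14) in DKO. Without *Wnt9b*KO 1 the *Wnt9b*KO difference was 0.42 (adjusted p = 0.0564). In the model of *Wnt9b*KO and wt only, it was 0.61 (adjusted p = 0.0501).

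The summed markers of the surface epithelium, the layer known to make *Wnt9b*, overlapped between the labels, although single markers differed. The 15 surface epithelium markers, among them *Epcam*, *Cdh1* and *Krt8*, summed to 350 to 368 CPM in wt, 323 to 375 CPM in *Rspo2*KO, 333 to 385 CPM in *Wnt9b*KO and 329 to 396 CPM in DKO, and none of the 15 was at 0. *Grhl3*, a transcription factor of the surface epithelium, stood at 2.52 to 5.16 CPM in the wt and *Rspo2*KO libraries and at 7.98 to 12.0 CPM in those labelled *Wnt9b*KO and DKO. In the averaged *Wnt9b* difference 5 of the 15 were called, 4 higher and 1 lower, a smaller share than the 42.1% of all genes. Per 100 CPM of these markers, *Wnt9b* stood at 3.09 and 3.65 CPM in wt, at 3.98 to 4.45 CPM in *Rspo2*KO, at 4.47 to 6.05 CPM in *Wnt9b*KO and at 5 to 5.77 CPM in DKO. On that scale every library with a *Wnt9b* label lay above those without one, the nearest being 4.47 in *Wnt9b*KO 2 and 4.45 in *Rspo2*KO 2. In plain CPM *Wnt9b* did not separate these libraries, while 20.8% of all genes did. The share of all genes that separate on the scaled values was not computed. In bulk tissue, fewer cells of a type and less RNA per cell cannot be told apart, and the part of epithelial content in the *Wnt9b* values was not tested.

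*Wnt9a* was lower with the *Wnt9b* label, most clearly in *Wnt9b*KO. It stood at 4.55 and 4.22 CPM in wt, at 4.04, 4.61 and 3.16 CPM in *Rspo2*KO, at 1.76, 2.44 and 2.22 CPM in *Wnt9b*KO and at 1.82, 3.36 and 3.76 CPM in DKO. The *Wnt9b*KO libraries lay below all wt and *Rspo2*KO libraries, and the DKO libraries lay below wt but overlapped *Rspo2*KO. It fell by 1.04 (log2, SE 0.288) in *Wnt9b*KO against wt, to 0.488 of the wt level (adjusted p = 0.0135), and the averaged *Wnt9b* difference was -0.72 (SE 0.192, adjusted p = 0.00772). The averaged difference was past the threshold in 20 of 20 alternatives (-0.87 to -0.59, adjusted p up to 0.0306). In DKO against wt the difference was -0.56 (SE 0.282, adjusted p = 0.159). DKO and *Wnt9b*KO were not told apart (difference 0.48, SE 0.265, adjusted p = 0.938). Without wt 1 the difference between *Wnt9b*KO and wt was -0.99, and without wt 2 it was -1.095, about as large as with both. It missed the threshold in either case, with the wt library left assumed to vary like the other labels. Counts of *Wnt9a* were low, 31 to 76 per library.

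**Figure D3:**
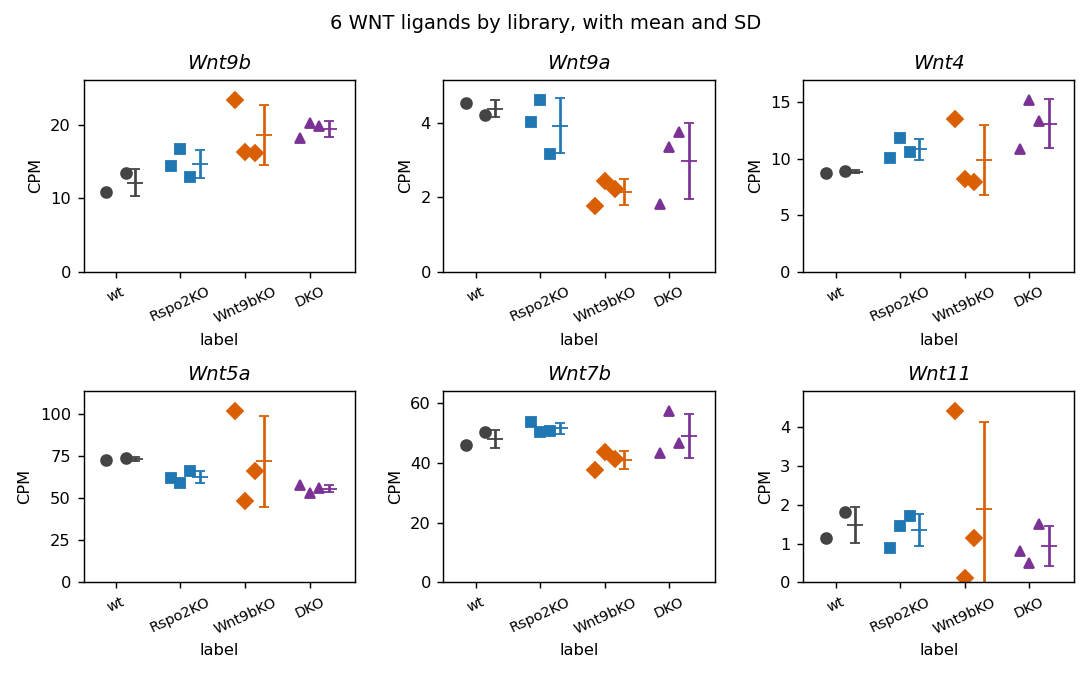
CPM of *Wnt9b*, *Wnt9a*, *Wnt4*, *Wnt5a*, *Wnt7b* and *Wnt11* in each library by label (linear axes from 0). Symbols are libraries, and the bar at the right of each label is the mean with its SD (n = 2 for wt, n = 3 for the others), truncated at 0 for *Wnt11* in *Wnt9b*KO. All 6 libraries with a *Wnt9b* label lie above wt for *Wnt9b* and below wt for *Wnt9a*.

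*Wnt9b* and *Wnt9a* were the 2 members called in *Wnt9b*KO against wt, 1 higher and 1 lower. Of all genes tested, 32.8% were called in that comparison, 16.8% higher and 16% lower, so a count of 2 in 10 is no more than the background. In the averaged *Wnt9b* difference the same 2 members were called, where 42.1% of all genes were (21.5% higher and 20.6% lower). By the rule of an unadjusted p below 0.05 and over 1.5-fold it called *Wnt9a* alone, and 18.9% of all genes. The median difference of the 10 members was 0.01 in each, against 0.01 over all genes in *Wnt9b*KO against wt and 0.02 in the averaged difference. Libraries of *Wnt9b*KO and wt did not overlap for *Wnt7b*, *Wnt9a* and *Wnt9b*, and the same held for 56.3% of all genes. For no member did all 6 libraries with a *Wnt9b* label lie outside the range of the 5 without it, which 20.8% of all genes did.

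**Figure D4:**
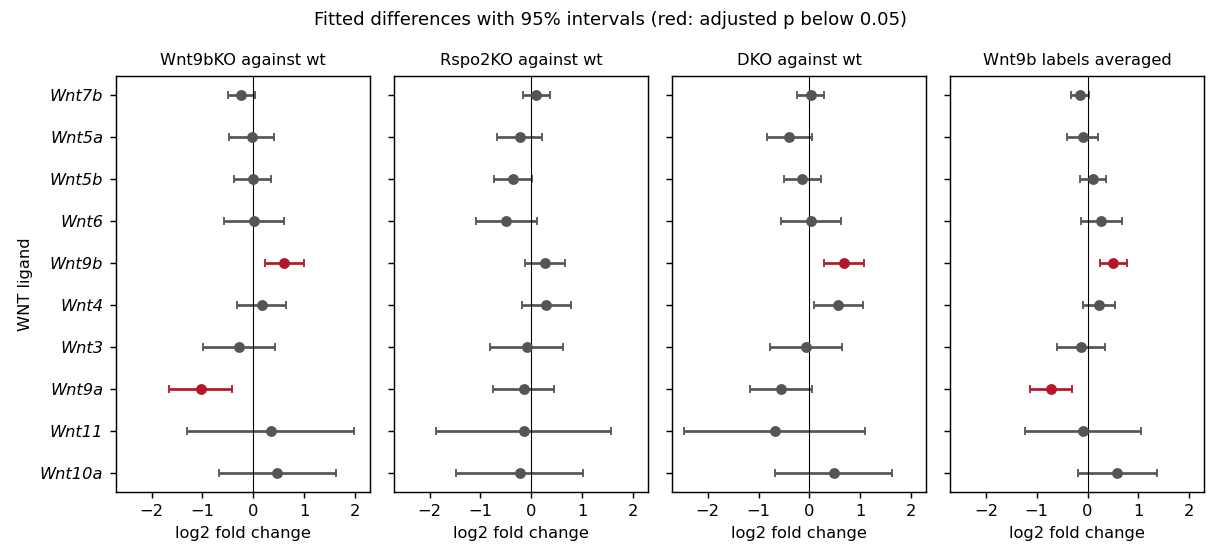
Fitted log2 fold change of each WNT ligand with its 95% interval in 4 comparisons, from the model of all 11 libraries. Red marks an adjusted p below 0.05. *Wnt9b* (higher) and *Wnt9a* (lower) are red with the *Wnt9b* label, *Wnt9b* alone in DKO, and none in *Rspo2*KO.

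The other ligands of the β-catenin branch did not pass the test in any comparison under the model used throughout, and *Wnt6*, *Wnt7b* and *Wnt10a* passed under some alternatives. *Wnt7b*, an ectodermal ligand and the most abundant one, was the steadiest member, with a pooled SD within labels of 0.133 (log2 CPM) against a median of 0.202 over all genes. It stood at 45.8 and 50.2 CPM in wt, at 53.6, 50.4 and 50.4 CPM in *Rspo2*KO, at 37.7, 43.6 and 41.1 CPM in *Wnt9b*KO and at 43.2, 57.1 and 46.5 CPM in DKO. All 3 *Wnt9b*KO libraries lay below wt, by a fitted -0.24 (SE 0.125, adjusted p = 0.163), and DKO overlapped wt. Since 324 of its exon bases (6.6%) overlap the antisense gene AU022754, and whether counting used strand is not given in the sources used here, reads of the 2 genes could be mixed there. The same holds for *Wnt5a*, of which 358 exon bases (4.6%) overlap the antisense gene Gm2670.

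*Wnt3*, whose loss in people causes limb and facial malformation, stood at 6.07 and 6.10 CPM in wt and at 4.36 to 6.55 CPM in *Rspo2*KO. It varied more under the other labels, at 7.02, 2.92 and 4.97 CPM in *Wnt9b*KO and 3.81, 5.85 and 7.82 CPM in DKO, so that wt lay inside the range of each. The fitted differences from wt were -0.28 (SE 0.331) in *Wnt9b*KO, -0.09 (SE 0.332) in *Rspo2*KO and -0.06 (SE 0.33) in DKO, with adjusted p of 0.542 or above. The 95% interval of the averaged *Wnt9b* difference ran from -0.60 to 0.35 (0.474 to either side of the estimate).

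*Wnt6*, an ectodermal ligand, stood at 11.6 and 13.6 CPM in wt, at 9.35, 10.3 and 7.45 CPM in *Rspo2*KO, at 18.4, 7.98 and 12.1 CPM in *Wnt9b*KO and at 10.7, 11.8 and 16.3 CPM in DKO. The *Rspo2*KO libraries lay below wt and below DKO. The fitted difference was -0.49 (SE 0.281, adjusted p = 0.517) for *Rspo2*KO against wt and 0.52 (SE 0.251, adjusted p = 0.174) for DKO against *Rspo2*KO. The latter was 0.32 without DKO 3 (adjusted p = 0.465) and 0.32 without *Wnt9b*KO 2 and DKO 3 (adjusted p = 0.294). It passed without a low-count filter (0.52, adjusted p = 0.0278) and with the offset for GC content and length (0.64, adjusted p = 0.0497), as did the averaged *Wnt9b* difference of *Wnt6* with that offset (0.44, adjusted p = 0.0371). *Wnt10a*, a ligand of teeth, hair and skin that lies 6193 bases from *Wnt6* on the same strand of chromosome 1, had 5 to 31 counts per library. It stood at 0.298 to 1.65 CPM, both extremes being in *Wnt9b*KO, and its averaged *Wnt9b* difference was 0.59 (SE 0.36, adjusted p = 0.206).

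Among the ligands of the polarity branch, *Wnt5a*, which drives outgrowth of facial and limb buds from the mesenchyme, was lower in DKO than in wt without passing the test. It stood at 72.8 and 74.1 CPM in wt, at 62.4, 59.4 and 66.2 CPM in *Rspo2*KO, at 101.8, 48.3 and 66.1 CPM in *Wnt9b*KO and at 57.7, 53.5 and 56.1 CPM in DKO. The 3 DKO libraries lay below all wt and *Rspo2*KO libraries, while those labelled *Wnt9b*KO spread across the whole range. The difference between DKO and wt was -0.40 (SE 0.206, adjusted p = 0.169). It passed the threshold in the model of those 2 labels only (adjusted p = 0.00466), without *Wnt9b*KO 1 (adjusted p = 0.0215), without a low-count filter (adjusted p = 0.0336) and with an offset for GC content and length (-0.59, adjusted p = 0.0407). Without both *Wnt9b*KO 2 and DKO 3 it was -0.41 and did not pass (adjusted p = 0.0846). The 11 facial mesenchyme markers, among them *Prrx1*, *Twist1* and *Pdgfra*, were summed for the same libraries. They gave 1390 and 1326 CPM in wt, 1024 to 1141 CPM in *Rspo2*KO, 1998, 1025 and 1391 CPM in *Wnt9b*KO and 1270 to 1363 CPM in DKO, with none of the 11 at 0. *Wnt5a* and the marker sum were thus both highest in *Wnt9b*KO 1, and in *Wnt9b*KO both were lowest in *Wnt9b*KO 2. The part of mesenchyme content in the *Wnt5a* values was not tested.

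*Wnt5b*, the close relative of *Wnt5a*, lay between 10.8 and 17.4 CPM. It stood at 16.3 and 14.2 CPM in wt and at 12.6, 11.5 and 11.4 CPM in *Rspo2*KO, which did not overlap, with a fitted difference of -0.37 (SE 0.174, adjusted p = 0.427). It was the member most like *Wnt5a* across the 11 libraries. Likeness was the root mean square difference of log2 CPM after centring each gene on its own mean, and it was 0.271 for this pair.

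*Wnt4* was higher in DKO than in wt without passing the test. It stood at 8.75 and 8.93 CPM in wt, at 10.1, 11.9 and 10.6 CPM in *Rspo2*KO, at 13.5, 8.22 and 7.97 CPM in *Wnt9b*KO and at 10.9, 15.2 and 13.3 CPM in DKO. Both labels with loss of *Rspo2* lay above wt, and *Wnt9b*KO lay on either side of it. The difference between DKO and wt was 0.57 (SE 0.223, adjusted p = 0.0719), and that between *Rspo2*KO and wt was 0.30 (SE 0.224, adjusted p = 0.632). The DKO difference passed in these same 4 settings (adjusted p = 0.0162 to 0.026) and without *Wnt9b*KO 2 (adjusted p = 0.0498). Without both *Wnt9b*KO 2 and DKO 3 it was 0.55 and did not pass (adjusted p = 0.104).

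*Wnt11* had few counts and the widest spread of the members, a pooled SD within labels of 1.41 (log2 CPM) that exceeded those of 99.6% of all genes. It had 13 and 30 counts in wt, 12, 24 and 27 in *Rspo2*KO, 83, 2 and 19 in *Wnt9b*KO and 14, 8 and 25 in DKO. The 2 counts of *Wnt9b*KO 2 are under the floor of 3 counts used here, which is 0.179 CPM in that library, and *Wnt9b*KO 1 held 4.42 CPM. The labels overlapped in every comparison. The 95% interval of the averaged *Wnt9b* difference ran from -1.23 to 1.05. Of its exon bases, 364 (8.8%) overlap the pseudogene Gm8398 on the other strand.

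In *Rspo2*KO against wt none of the 10 members was called by edgeR, none had an unadjusted p below 0.05, and DESeq2 called 0. The targeted gene *Rspo2* was not called by edgeR there either (-1.53, SE 0.643, adjusted p = 0.358). A member left uncalled is therefore not shown to be unchanged. Of all genes tested, 0.0346% (6 genes) were called in *Rspo2*KO against wt, and 5 of these were sex-linked genes, *Xist* among them. The median difference of the members was -0.15, with 7 below 0 and 3 above, against 0.00 over all genes. Libraries did not overlap for *Wnt4* and *Wnt7b*, higher in *Rspo2*KO, and for *Wnt5a*, *Wnt5b* and *Wnt6*, lower, and 32.9% of all genes did not overlap. In the averaged *Rspo2* difference 0 members were called by edgeR or DESeq2, with 0.0635% of all genes called, and 3 passed an unadjusted threshold of 0.05. These were *Wnt4* (0.35, SE 0.148, adjusted p = 0.481), *Wnt5a* (-0.30, SE 0.139, adjusted p = 0.53) and *Wnt7b* (0.18, SE 0.0838, adjusted p = 0.53). The 0.0635% refers to the adjusted threshold, and many more genes passed the unadjusted one. *Rspo2* itself was not called by edgeR in this averaged difference (-1.22, SE 0.428, adjusted p = 0.375). By edgeR's unadjusted p, *Wnt7b* (0.0475) ranked 1550 and *Wnt5b* (0.0509) ranked 1645 of the 17317 genes tested. For no member did the 6 libraries labelled as lacking *Rspo2* lie outside the range of the other 5, as 0.508% of all genes did.

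In DKO against wt *Wnt9b* was the 1 member called, with 27.5% of all genes called. *Wnt4*, *Wnt5a*, *Wnt9a* and *Wnt9b* did not overlap wt, as was so for 58.1% of all genes. DKO against *Rspo2*KO gave 0 members called by edgeR and by DESeq2, with 18.2% of all genes called, and *Wnt9b* had an unadjusted p of 0.022 (difference 0.41, SE 0.158, adjusted p = 0.0917). It passed with the offset for GC content and length (0.44, adjusted p = 0.0314), in the model of those 2 labels only (0.43, adjusted p = 0.0312) and without *Wnt9b*KO 1 (0.41, adjusted p = 0.033). The DKO libraries did not overlap *Rspo2*KO for *Wnt5a*, lower in DKO, nor for *Wnt6*, *Wnt9b* and *Wnt10a*, higher in DKO, against 36.5% of all genes. DKO against *Wnt9b*KO gave 0 members by either tool, with 0.121% of all genes called, and *Wnt7b* had an unadjusted p of 0.0326 (difference 0.26, SE 0.111, adjusted p = 0.813). No member was free of overlap between those labels, as 11.2% of all genes were. For the interaction, DKO minus *Wnt9b*KO minus *Rspo2*KO plus wt, no member was called by edgeR or DESeq2 or had an unadjusted p below 0.05, with 0.0635% of all genes called. The smallest adjusted p was 0.619 for *Wnt9a* (0.63, SE 0.384). The same 5 sex-linked genes were among the 21 genes called in DKO against *Wnt9b*KO and the 11 called for the interaction. These comparisons share libraries and are not independent of each other.

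The spread within labels was not even across libraries. *Wnt9b*KO 1 had the highest level of its label for 8 of the 10 members, all but *Wnt7b* and *Wnt9a*, for which it had the lowest. Over all genes it was the highest of its label for 39.2%. *Wnt9b*KO 2 was the lowest of its label for 5 members (*Wnt3*, *Wnt5a*, *Wnt6*, *Wnt10a* and *Wnt11*), against 35% of all genes, and DKO 1 for 7 members, against 31.6%. Without *Wnt9b*KO 2 and DKO 3, the libraries whose *Rspo2* counts went against their labels, *Wnt9b* (0.55, adjusted p = 0.00538) and *Wnt9a* (-0.87, adjusted p = 0.00458) were still the 2 members called in the averaged *Wnt9b* difference. Without *Wnt9b*KO 2 alone, *Wnt6* (0.42, adjusted p = 0.0441) and *Wnt10a* (0.82, adjusted p = 0.0285) were also called. Without *Wnt9b*KO 1, *Wnt5a* was called lower in that difference (-0.26, adjusted p = 0.0219) and in *Wnt9b*KO against wt (-0.36, adjusted p = 0.0499). Without DKO 2, *Wnt7b* was called lower in the averaged difference (-0.22, adjusted p = 0.0438). *Wnt5b* was called higher in that difference with the GC and length offset together with the replicate block (0.28, adjusted p = 0.027). Precision differed between members: the 95% interval of that difference reached 0.179 to either side for *Wnt7b*, with 8237 counts in all, and 1.14 for *Wnt11*, with 257.

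The nearest gene to *Wnt9b* in the genome with a WNT identity is *Wnt3*, 24328 bases away on the opposite strand. Within 500 kb of *Wnt9b* lie 15 protein-coding genes including itself, of which 9 were tested. In the averaged *Wnt9b* difference 2 were higher, *Wnt9b* and *Nsf* (0.35, SE 0.103, adjusted p = 0.0147, past the threshold in 17 of 20 alternatives), a factor of vesicle fusion. Another 2 were lower, *Gosr2* (-0.35, SE 0.0766, adjusted p = 0.00229), a Golgi SNARE, and *Arf2* (-0.53, SE 0.0725, adjusted p = 5.59e-05), a small GTPase of vesicle coats. *Wnt3* was at -0.13 (SE 0.222, adjusted p = 0.676). As a share of the genes tested, 4 of 9 called is close to the 42.1% over the genome.

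**Figure D5:**
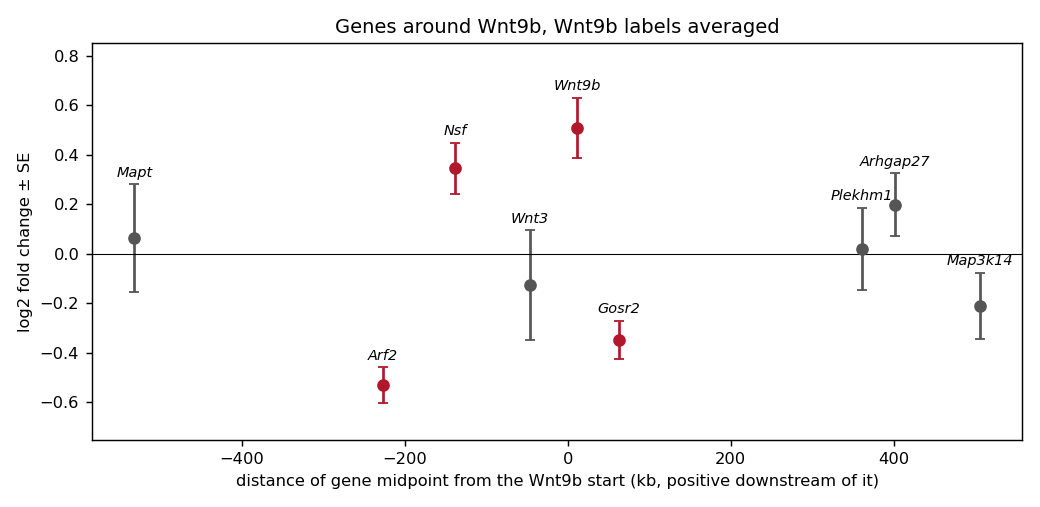
Averaged *Wnt9b* log2 fold change with SE of the 9 tested genes around *Wnt9b*, against the distance of each gene's midpoint from the *Wnt9b* start (kb). Red marks an adjusted p below 0.05. *Wnt9b* and *Nsf* lie above 0, *Gosr2* and *Arf2* below it, and *Wnt3* spans 0.

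The 5 genes whose pattern over the 11 libraries was nearest to *Wnt9b*, among 14849 tested genes with a mean of at least 1 CPM, were *Gm26668* (0.105), *Gpatch2l* (0.118), *Aes* (0.119), *Kctd3* (0.122) and *Synj2* (0.123), the values being the same root mean square difference. Among the members the nearest to *Wnt9b* was *Wnt4* (0.239), and *Wnt3* and *Wnt6* were nearest to each other (0.3). *Wnt10a* was nearest to *Wnt6* (0.366), *Wnt7b* to *Wnt4* (0.303) and *Wnt9a* to *Wnt7b* (0.385). *Wnt11* stood apart, its nearest member *Wnt10a* being at 0.91.

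Of the 9 other WNT ligand genes, 8 were tested and 4 were called in the averaged *Wnt9b* difference, 2 higher and 2 lower, against 42.1% of all genes, so that the count is close to the background. *Wnt8a*, with 0 to 2 counts per library, was not tested. *Wnt8b*, a ligand of the forebrain, rose by 2.24 (log2, SE 0.481, adjusted p = 0.00186). It stood at 0.694 to 1.39 CPM in wt and *Rspo2*KO and at 0.692, 8.04 and 4.31 CPM in *Wnt9b*KO and 2.93, 5.29 and 7.22 CPM in DKO, so that 5 of the 6 libraries with a *Wnt9b* label lay above all those without one and *Wnt9b*KO 1 lay below them. *Wnt2b*, known from the ciliary margin of the eye, fell by 0.56 (SE 0.17, adjusted p = 0.0165, past the threshold in 19 of 20 alternatives). The other 2, named after their values were seen, were *Wnt7a* (0.56, SE 0.175, adjusted p = 0.0193, past the threshold in 18 of 20 alternatives), higher, and *Wnt3a* (-0.83, SE 0.287, adjusted p = 0.0308, past the threshold in 11 of 19 alternatives), lower. *Wnt3a* was at -1.59 (adjusted p = 0.0155) in *Wnt9b*KO against wt and at -0.07 (adjusted p = 0.916) in DKO against *Rspo2*KO. Of 9 forebrain and eye markers, 7 were higher in that difference and 0 lower, led by *Emx2* (1.34, adjusted p = 2.51e-05) and *Lhx2* (0.90, adjusted p = 0.000487). Their sum was 192 and 172 CPM in wt, 185 to 208 CPM in *Rspo2*KO, 193, 377 and 250 CPM in *Wnt9b*KO and 282, 281 and 226 CPM in DKO, with none of the 9 at 0. In *Wnt9b*KO the libraries had the same order for *Wnt8b* and the marker sum, whereas in DKO the library with the highest *Wnt8b*, DKO 3, had the lowest sum. How much brain tissue was carried along in each dissection was not tested.

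Other genes of the pathway were counted in the same averaged *Wnt9b* difference, on lists chosen with earlier results of these data known. The counts stand beside 42.1% of all genes called, 21.5% higher and 20.6% lower. Of 19 genes of WNT acylation, secretion and transport, 6 were higher and 3 lower, among them the glypicans *Gpc4* (0.74, adjusted p = 0.00103) and *Gpc6* (0.44, adjusted p = 0.0021), cell surface proteoglycans that bind WNT. The rise of both glypicans was called in *Wnt9b*KO against wt (*Gpc4* 1.14, adjusted p = 0.00164, *Gpc6* 0.705, adjusted p = 0.0022). In DKO against *Rspo2*KO edgeR called neither (0.34, adjusted p = 0.238, and 0.17, adjusted p = 0.384), and each passed in 1 of 21 alternatives. The interaction was called by edgeR for neither (adjusted p = 0.435), and that of *Gpc4* passed in 1 of 20 alternatives. Of 12 Frizzled and LRP receptors, 2 were higher, *Lrp6* (0.65, adjusted p = 5e-05) and *Fzd2* (0.49, adjusted p = 0.000239), and 1 was lower. Without *Wnt9b*KO 2 and DKO 3 these counts were 3 and 2. None of 6 other WNT receptors was called by edgeR or DESeq2, although 2 had an unadjusted p below 0.05: *Ror2*, the WNT5A receptor (-0.23, adjusted p = 0.0588), and *Reck*, a partner of WNT7 ligands (0.17, adjusted p = 0.0864). Of 12 secreted antagonists, 3 were higher, with *Sfrp2*, which sequesters WNT ligands, at 0.63 (adjusted p = 0.000197), and 2 lower, with *Draxin* at -0.69 (adjusted p = 0.000118). *Sfrp2* differed by 1.14 (adjusted p = 0.000143) in *Wnt9b*KO against wt and by 0.13 (adjusted p = 0.535) in DKO against *Rspo2*KO. Its interaction of -1.003 (SE 0.202) was not called by edgeR (adjusted p = 0.195, unadjusted p = 0.00018), but passed the threshold in 2 of 20 alternatives. Of 15 antagonists in DESeq2, 1 was called lower in the interaction. Without *Wnt9b*KO 2 and DKO 3 the antagonists called in the averaged *Wnt9b* difference were 6 higher and 2 lower, while 40.2% of all genes were called. Of 18 target genes of the β-catenin branch, 1 was higher and 5 were lower. Among the lower were 2 feedback inhibitors, *Znrf3* at -0.50 (adjusted p = 0.00156) and *Dkk1* at -0.67 (adjusted p = 0.0178, past the threshold in 19 of 20 alternatives). Both directions together were a smaller share of the list than of all genes, and the lower genes alone a larger one. Medians of these lists were 0.03, 0.16, -0.03, 0.34 and -0.05, in that order, against 0.02 over all genes. In the averaged *Rspo2* difference edgeR called 0 genes of each of the 5 lists, with 3, 2, 2, 3 and 3 at an unadjusted p below 0.05, and DESeq2 called 1, an antagonist. Of the 17317 genes tested, at least 1550 had an unadjusted edgeR p below 0.05 in that difference. Without *Wnt9b*KO 2 and DKO 3, the libraries whose *Rspo2* counts went against their labels, edgeR called 2 genes in that difference, both lower, while 0.105% of all genes were called. These were the target *Msx1* (-0.94, SE 0.112, adjusted p = 0.00594), a transcription factor that is also on the mesenchyme list, and *Dkk1* (-0.96, SE 0.137, adjusted p = 0.0189), which is on the lists of targets and of antagonists. With all 11 libraries their differences were -0.61 (adjusted p = 0.46) for *Msx1*, named after its values were seen, and -0.68 (adjusted p = 0.303) for *Dkk1*. The 2 libraries were left out for their *Rspo2* counts, so that choice bears on this same difference. *Wnt9b*KO 2 also had the lowest mesenchyme marker sum of its label (1025 CPM), and DKO 3 (1301 CPM) lay inside the range of its own. The part of that choice in these calls was not tested.

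Markers of cell types that the explants could hold were counted in the averaged *Wnt9b* difference as well, beside the 42.1% of all genes called. Of 15 surface epithelium markers 4 were higher, led by *Grhl3* (1.37, adjusted p = 4.66e-05), and 1 was lower, *Krt8* (-0.47, adjusted p = 0.00116). Of 11 facial mesenchyme markers 2 were higher and 1 lower, with *Dlx5* at 1.05 (adjusted p = 0.00292) and *Col1a2* at 0.82 (adjusted p = 0.0023). Without *Wnt9b*KO 2 and DKO 3 these counts were 4 higher and 1 lower. Of 6 erythroid markers 0 were higher and 5 lower, their sum running from 3936 to 5751 CPM in wt and *Rspo2*KO and from 1738 to 2843 CPM in *Wnt9b*KO and DKO. Neuron markers (0 higher and 2 lower of 9), endothelial markers (3 higher and 2 lower of 6) and heart muscle markers (0 higher and 3 lower of 3 tested) were also called. The wt libraries stood far apart in heart muscle: its 6 markers summed to 8.45 and 58.1 CPM there. Their sum was 7.64 to 10.3 CPM in *Rspo2*KO, 3.22 to 7.39 CPM in *Wnt9b*KO and 4 to 5.46 CPM in DKO. The called shares of surface epithelium, mesenchyme and neuron markers were below that of all genes, and those of erythroid, endothelial and heart muscle markers were above it. The part of cell composition in the ligand differences was not tested.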

How the data were processed

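RNA of facial process explants at E10.5 was measured in 11 libraries, grouped by genotype label. The authors deposited whole-number counts of reads per Ensembl gene, without normalization, made by Cutadapt trimming, STAR alignment to GRCm38 and HTSeq counting. The authors' versions and the strand setting are not given in the sources used here. From these counts, edgeR 4.0.16 in R 4.3.3 was run with TMM scaling, its filterByExpr filter and a quasi-likelihood model of 1 mean per label over all 11 libraries, because wt has 2. Tests were two-sided, p-values were adjusted by Benjamini-Hochberg over 17317 genes, and a gene was called at an adjusted p below 0.05 with no fold threshold. "Rose" and "fell" refer to called genes. The model was tested on simulated data.

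Gene positions, exon lengths and GC content came from the GENCODE annotation of GRCm38, in which 36723 of 38561 identifiers were found. No stretch of 50 bases of *Wnt3*, *Wnt5b*, *Wnt6*, *Wnt9a*, *Wnt9b* or *Wnt10a* transcripts occurs in another gene. The shares that do are 4.33% for *Wnt4*, 3.38% for *Wnt5a*, 3.88% for *Wnt7b* and 7.46% for *Wnt11*. A floor of 3 counts was 0.160 to 0.268 CPM, and covers counting error only. No libraries of a label were duplicates: chi-square per degree of freedom between them was 5.5 to 36.8.

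The members and the lists of pathway and marker genes were chosen with earlier results of these data known. Named genes are the members, at most 2 genes of each list with the smallest p in the averaged *Wnt9b* difference, protein-coding genes within 500 kb of *Wnt9b*, *Rspo2*, and the 5 genes most like *Wnt9b* and the member most like each member. Also named are *Xist*, *Wnt8a*, the genes that overlap exons of members, and *Epcam*, *Cdh1*, *Prrx1*, *Twist1* and *Pdgfra* as examples of their marker lists. *Wnt7a*, *Wnt3a* and *Msx1* were named after their values were seen. Likeness used log2 CPM with 0.5 added to each count. Promoter sequences came from RefSeq. The alternatives were DESeq2 1.42.0 (the tool the study's methods name), RLE and upper-quartile factors, no filter, a filter of 10 or more counts in each library, a model of only the labels compared, replicate number as block, a GC content and length offset by loess (span 0.3) with or without that block, an unadjusted p below 0.05 with over 1.5-fold, leaving out each library, and leaving out *Wnt9b*KO 2 and DKO 3. Figures used matplotlib 3.10.9.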

Additional observations from a re-analysis of the deposited data

How the results depend on the processing

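Where leaving out a library left 1 in wt, it was assumed to vary like the others. The number of members called in *Wnt9b*KO against wt, 2 as reported, was 1 with only the labels compared and 0 to 2 with each library left out, the 0 without wt 1. In DKO against wt, 1 as reported, it was 3 without the filter, with the GC and length offset, with that offset and the replicate block, and with only the labels compared, and 0 to 3 with each library left out, the 0 again without wt 1. In DKO against *Rspo2*KO, 0 as reported, it was 1 without the filter, 2 with the offset, 1 with the offset and the replicate block, 1 with only the labels compared, and 0 to 1 with each library left out. In the averaged *Wnt9b* difference, 2 as reported, it was 1 at an unadjusted p below 0.05 and over 1.5-fold, 3 with the offset (adding *Wnt6*), 3 with the offset and the replicate block (adding *Wnt5b*) and 2 to 4 with each library left out. With the longest transcript as length, wt levels were 10.48 CPM per kb for *Wnt5a*, 6.447 for *Wnt5b* and 14.1 for *Wnt7b*. The cause of these shifts was not tested.

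The replicate block alone gave 2 members in *Wnt9b*KO against wt, 1 in DKO against wt, 2 in the averaged *Wnt9b* difference and 0 in the other comparisons, as without it. Samples with the same number were not treated as paired. Of 15 same-numbered pairs, 1 had a correlation of deviations over 0.1 (range -0.083 to 0.207). Those among the mutant labels were all positive, from 0.0293 to 0.207, while different-numbered mutant pairs ran from -0.185 to 0.0703. Whether same-numbered samples were handled together was not tested. No called member changed sign in any alternative. The model of only the labels compared does not exist for the averaged differences and the interaction. Over single members and alternatives, 1559 values stayed called or, if uncalled, stayed so within 1 SE, 24 passed the threshold newly, 6 no longer passed it and 44 uncalled values moved by more than their SE without passing. The 95% intervals were widest for the members with the fewest counts, reaching 0.771 to either side of the averaged *Wnt9b* difference for *Wnt10a*, with 145 counts in all, and 1.14 for *Wnt11*, with 257 and a wider spread within labels.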
